A study of Mus musculus with 6 samples.

Results

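The BCL2 family genes described here are 10 genes that encode pro-death and pro-survival regulators of mitochondrial apoptosis, out of 27179 genes counted. They were taken by symbol: the effectors Bax and Bak1, the BH3-only genes Bbc3, Pmaip1, Bcl2l11 and Bid, and the pro-survival genes Bcl2, Bcl2l1, Bcl2l2 and Mcl1. All 10 were found in the count table and all 10 passed the filter on low counts. RNA was sequenced from cancer-associated fibroblasts (CAFs) of raGFP-Wnt1 mammary tumors, that is, tumors of mice carrying both a Pdgfra-GFP reporter and the MMTV-Wnt1 transgene. The reporter, from C57BL/6 mice, is a heterozygous knock-in of nuclear GFP at Pdgfra, which marks fibroblasts, and the transgene, from FVB/NJ mice, drives Wnt1 in mammary epithelium through the MMTV promoter. GFP-positive cells of 3 tumors were sorted by flow cytometry into a CD34 negative and a CD34 positive fraction, which gave 3 libraries per group. Both groups thus carry the same alleles, no treatment is given for either, and the age of the mice is not given in the sources used here. The labels do not say whether the 3 tumors came from different mice, so the p-values measure the spread between these tumors.

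Cells die through the mitochondrial route when Bax and Bak1 proteins form pores in the outer mitochondrial membrane and release cytochrome c, which activates caspases. Pro-survival members such as MCL1, BCL2, BCL-XL (from Bcl2l1) and BCL-W (from Bcl2l2) hold these effectors in check. BH3-only proteins carry stress signals to the family: PUMA (Bbc3), BIM (Bcl2l11) and cleaved BID bind the pro-survival proteins and can activate the effectors, whereas NOXA (Pmaip1) binds MCL1 above all. Bbc3, Pmaip1 and Bax are known transcriptional targets of p53, and Bcl2l11 and Bbc3 are known targets of FOXO3.

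Pmaip1, Bbc3 and Bax had higher levels in the CD34 negative fraction of all 3 tumors, and the groups did not overlap for these 3 genes. Over all tested genes, 22.8% were higher in that fraction in 3 of 3 tumors, and 10.4% were higher there without overlap. Mean RPKM (the count scaled to library size, or CPM, divided by the gene length in kilobases) was 3.604 times as high for Pmaip1, 2.78 times for Bbc3 and 1.62 times for Bax. None of the 4 pro-survival genes passed the test in either direction. In limma-voom with Benjamini-Hochberg adjustment, 0 of 10 members passed without a term for the tumor, where 0.121% of all tested genes were called. At an unadjusted p under 0.05 in that fit, the same 3 members were higher, beside 7.23% of all tested genes. With the tumor as a block, 3 of 10 were called higher, beside 4.32% of all tested genes, and 0 of 10 lower, beside 4.25%. Both libraries of a pair came from one tumor, so the block compares fractions within a tumor.

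Stretches of promoter sequence are shown for the 3 members whose windows matched the pattern of a single p53 half-site or the FOXO letters GTAAACA. They run 5′ to 3′ on the gene's strand for 250 bases before the annotated start, from RefSeq on GRCm38.p6. Capitals mark a p53 half-site in Bax, 201 bases before the start, and the FOXO letters GTAAACA, on either strand, in the other pair. The Bax stretch is chr7:45466899-45467148 on the minus strand, the Bbc3 stretch chr7:16310011-16310260 on the plus strand and the Bcl2l11 stretch chr2:128125788-128126037 on the plus strand. The Bbc3 stretch precedes the second of 3 starts listed for this gene. The Bcl2l11 stretch precedes the first start listed for that gene, and the window of its other start held no match.
Bax: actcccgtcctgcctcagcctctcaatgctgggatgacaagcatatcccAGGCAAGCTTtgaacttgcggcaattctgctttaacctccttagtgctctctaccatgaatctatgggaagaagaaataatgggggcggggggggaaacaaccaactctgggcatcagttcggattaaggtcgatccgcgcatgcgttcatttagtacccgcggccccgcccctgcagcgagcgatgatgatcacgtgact
Bbc3: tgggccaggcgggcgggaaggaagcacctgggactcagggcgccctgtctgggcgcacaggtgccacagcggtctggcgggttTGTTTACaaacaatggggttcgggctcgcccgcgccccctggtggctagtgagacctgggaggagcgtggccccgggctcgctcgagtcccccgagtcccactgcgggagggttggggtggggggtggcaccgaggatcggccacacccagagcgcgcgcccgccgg
Bcl2l11: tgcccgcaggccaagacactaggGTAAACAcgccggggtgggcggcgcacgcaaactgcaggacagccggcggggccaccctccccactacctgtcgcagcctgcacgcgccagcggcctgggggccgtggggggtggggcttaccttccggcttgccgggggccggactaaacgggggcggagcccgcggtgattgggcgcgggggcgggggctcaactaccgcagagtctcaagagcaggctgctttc

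Windows of 300 bases, with 50 bases after the start, were searched for 9 of 10 members, 14 windows in all. Pmaip1 was not searched, since chromosome 18 was left out of the windows, also of those over all genes. A p53 half-site stood in 1 of the 14 windows and in 8.36% of all 32851 windows. GTAAACA or its reverse complement stood in 2 of the 14 and in 3.65% of all windows. The letters TATAAA and TGACGTCA were in 0 of the 14, and in 13.6% and 1.79% of all windows. GC content was 74.7% to 78% in the 3 Bbc3 windows and 76% in the Bcl2 window, against 57.3% for Bax, 49.3% to 55.7% for the 3 Bcl2l1 windows and a median of 52.7% over all windows. These matches describe letters in a window and say nothing of binding.

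**Figure D1:**
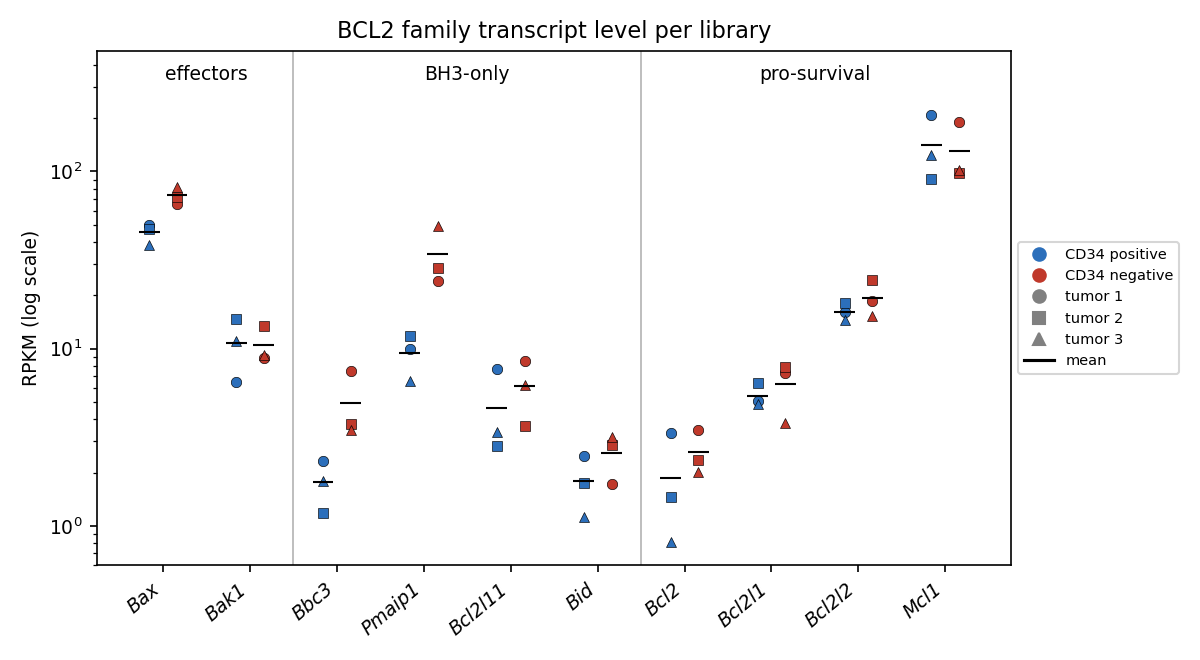
Level of each BCL2 family gene in each of the 6 libraries, as RPKM on a log axis; blue marks CD34 positive and red CD34 negative CAFs, the marker shape gives the tumor and the bar the group mean. The 3 red points lie above the 3 blue points for Bax, Bbc3 and Pmaip1 and for no other member.

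Levels of the members spanned a wide range. RPKM divides by gene length, so a comparison between genes rests on the deposited length. That length was 869 bases for Bax and 1891 for Bid, against 1576 and 3550 bases in all their GENCODE exons together. Levels with another length were not computed. Mcl1 was the highest in both groups, at 130.5 ± 52.5 RPKM in CD34 negative and 141 ± 60.9 RPKM in CD34 positive CAFs (SD, n = 3), followed by Bax. In CD34 negative CAFs the order went on with Pmaip1, Bcl2l2, Bak1, Bcl2l1, Bcl2l11, Bbc3, Bcl2 and Bid. The ranges of Pmaip1 and Bcl2l2 overlapped, as did those of each pair of neighbours from Bcl2l1 down. In CD34 positive CAFs the order was Bcl2l2, Bak1, Pmaip1, Bcl2l1, Bcl2l11, Bcl2, Bid and Bbc3. Here the ranges of Bcl2l2 and Bak1, of Bak1 and Pmaip1, and of each pair from Bcl2l1 down overlapped. Pmaip1 thus ranked 3 in CD34 negative and 5 in CD34 positive CAFs, and Bbc3 ranked 8 and 10. Counts behind the members lay between 60 for Bid and 37414 for Mcl1, and Bid stood at the 29.1 percentile of all tested genes by level, Mcl1 at the 98.2 percentile.

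Depth and purity were examined next. Libraries held between 16238059 and 86609267 counts. The sorted marker Cd34 was at 79.2, 42.0 and 102 CPM in CD34 negative libraries 1, 2 and 3 and at 677.5, 562.5 and 1605 CPM in the positive ones. CD34 negative library 3 stood apart, with counts for 14314 genes against 16253 to 19220 in the others, so the value without tumor 3 is given for each member. The 8 fibroblast markers were expressed throughout, with summed CPM, mostly of collagens, of 67700 to 93810 in CD34 negative and 77190 to 94310 in CD34 positive CAFs, and 2 of them, Dcn (-1.12 on the log2 scale) and Lum (-0.73), fell with the tumor as a block. Summed CPM of 7 immune markers was 10.4 to 11.7 in CD34 negative and 5.26 to 11.9 in CD34 positive CAFs, with Ms4a1 at 0 in every library. The 4 adipocyte markers summed to at most 0.0356 and 0.882 CPM, with Cidec and Lep at 0 throughout. The 6 epithelial markers summed to 149, 124.5 and 48.3 CPM in CD34 negative libraries 1, 2 and 3 and to 129.7, 82.4 and 12.8 CPM in the positive ones. Their sum was thus higher in the CD34 negative library of each tumor, and 0 of them passed with the tumor as a block. The 5 endothelial markers were at 10.4 to 29.7 and 55.2 to 122 CPM, of which Tek made 5.45 to 13.4 and 48.8 to 115.6 CPM. The 5 pericyte markers summed to 155 to 180.2 and 67.9 to 156 CPM, but moved in opposite directions. With the tumor as a block, Mcam (2.15 on the log2 scale) and Cspg4 (1.81) rose, beside 1.79 for Pmaip1, whereas Kcnj8 (-2.31) and Abcc9 (-1.71) fell. Rgs5, at 0.247 to 10.7 CPM, was 7.53 times as high in CD34 negative CAFs by mean CPM with no overlap, and did not pass. The 5 cycling markers were at 11.5 to 57.9 and 42.1 to 269 CPM, and 3 of them fell with the tumor as a block. The part of these differences in the results on the BCL2 family was not tested. In sorted bulk RNA, a change in the share of cells that express a gene cannot be told apart from a change in RNA per cell.

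Of the 2 effectors among the members, Bax was the more abundant (gene 12028, chromosome 7, 45461695 to 45466903, protein-coding). It was at 65.6, 72.0 and 82.1 RPKM in CD34 negative libraries 1, 2 and 3 and at 49.9, 47.6 and 38.5 RPKM in CD34 positive libraries 1, 2 and 3. Every CD34 negative library was above every CD34 positive one, and the gap was widest in tumor 3. Within tumors 1, 2 and 3 the log2 ratio was 0.40, 0.60 and 1.09. For Bax, limma-voom gave a log2 fold change of 0.70 ± 0.18 (SE; adjusted p = 0.150) without the block and 0.70 ± 0.17 (adjusted p = 0.0330) with it. With the block, Bax did not pass when tumor 2 was left out, at 0.77 (limma-voom adjusted p = 0.0865), and was at 0.50 without tumor 3 (adjusted p = 0.0490). A predicted gene, Gm45808, shares 192 exonic bases with Bax on the same strand in GENCODE, so its reads cannot be separated with certainty.

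Bak1, the other effector (gene 12018, chromosome 17, 27019812 to 27028627), gave no such difference. It was at 8.89, 13.4 and 9.19 RPKM in the CD34 negative libraries and at 6.46, 14.7 and 11.03 RPKM in the positive ones, so the groups overlapped. Its log2 fold change was -0.17 ± 0.31 without and -0.06 ± 0.20 with the block, with a 95% confidence interval of -0.50 to 0.38 in the latter. Its sign depended on the fit, and it was at 0.03 with the block without tumor 3. Ggnbp1 shares 614 exonic bases with Bak1 on the opposite strand and had 136 counts over the 6 libraries against 6234 for Bak1. The ratio of Bax to Bak1 in RPKM was 7.38, 5.35 and 8.94 in CD34 negative libraries 1, 2 and 3 and 7.72, 3.24 and 3.49 in the positive ones. This ratio was higher in the CD34 negative fraction of tumors 2 and 3 and lower in that of tumor 1.

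Pmaip1, which encodes NOXA, had the largest ratio of mean levels among the 10 members (gene 58801, chromosome 18, protein-coding). It was at 24.1, 28.7 and 49.4 RPKM in CD34 negative libraries 1, 2 and 3 and at 10.0, 11.8 and 6.55 RPKM in the positive ones. The lowest CD34 negative library was above the highest positive one, and library 3 was both the highest of the negative and the lowest of the positive libraries. The log2 ratio within tumors 1, 2 and 3 was 1.26, 1.28 and 2.91. In limma-voom, the change of Pmaip1 on the log2 scale was 1.76 ± 0.34 (SE; adjusted p = 0.0811) without the block and 1.79 ± 0.29 (adjusted p = 0.00681) with it. With the block it passed without each tumor in turn, at 1.86 without tumor 1, 2.25 without tumor 2 and 1.27 without tumor 3. Without the block, the change of Pmaip1 was 1.48 when CD34 negative library 3 was left out, and 1.96 when tumor 1 was left out, where it passed (limma-voom adjusted p = 0.0499).

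Bbc3, which encodes PUMA, was the least abundant member in CD34 positive CAFs (gene 170770, chromosome 7, 16308398 to 16318334). It was at 7.53, 3.74 and 3.48 RPKM in the CD34 negative libraries and at 2.32, 1.18 and 1.80 RPKM in the positive ones. The groups did not overlap, although CD34 negative library 1 was far above the other 2. The log2 ratio within tumors 1, 2 and 3 was 1.69, 1.67 and 0.94. Bbc3 had a log2 fold change of 1.76 ± 0.48 (SE; limma-voom adjusted p = 0.163) without the block and of 1.49 ± 0.37 (adjusted p = 0.0357) with it. With the block, Bbc3 did not pass in limma-voom without tumor 1 (1.44, adjusted p = 0.185) or without tumor 2 (1.33, adjusted p = 0.361), and it passed without tumor 3 (1.66, adjusted p = 0.00443).

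The other BH3-only genes had smaller changes that did not pass in any of the fits run. Bcl2l11, which encodes BIM (gene 12125, chromosome 2, 128126038 to 128162547), was at 8.57, 3.68 and 6.23 RPKM in the CD34 negative libraries and at 7.64, 2.82 and 3.40 RPKM in the positive ones. Its groups overlapped, since both libraries of tumor 1 were high, but within each tumor the CD34 negative library was the higher, by 0.16, 0.38 and 0.87 on the log2 scale. With the block, the change of Bcl2l11 was 0.45 ± 0.20 on the log2 scale (95% confidence interval 0.01 to 0.89), and its limma-voom adjusted p was 0.207. Without tumor 3 it was 0.26. Bid, the BH3-only protein that caspase-8 cleaves (gene 12122, chromosome 6, 120893119 to 120917062), was at 1.73, 2.87 and 3.17 against 2.49, 1.74 and 1.12 RPKM. It was lower in tumor 1 and higher in tumors 2 and 3, and its log2 fold change with the block was 0.67 ± 0.44, with a 95% confidence interval of -0.31 to 1.65. Without tumor 3, Bid was at 0.30 with and 0.18 without the block. Bcl2l13 shares 628 exonic bases with Bid on the opposite strand, and the library kit does not mark strand. Mean CPM of Bcl2l13 was 28.6 in CD34 negative and 32.1 in CD34 positive CAFs, against 4.90 and 3.37 for Bid, so the origin of reads in the shared bases is uncertain.

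**Figure D2:**
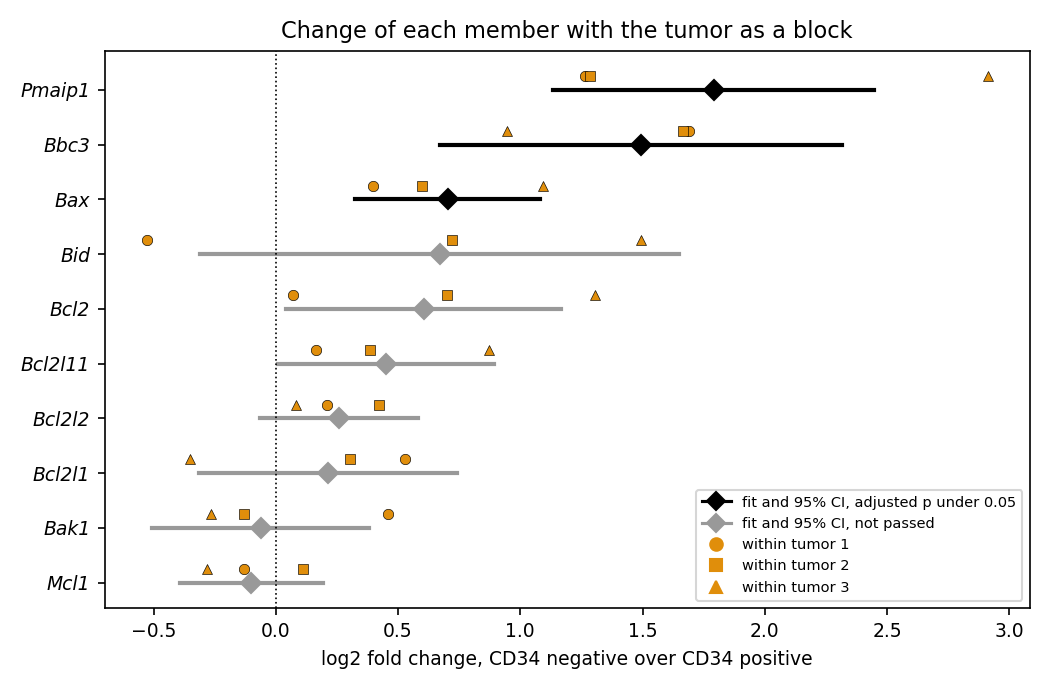
Log2 fold change of each member, CD34 negative over CD34 positive, with the tumor as a block; diamonds and lines give the fit and its 95% confidence interval, in black where the adjusted p is under 0.05, and orange points the ratio within each tumor. Pmaip1 (1.79), Bbc3 (1.49) and Bax (0.70) are the 3 in black, and Mcl1 (-0.10) and Bak1 (-0.06) lie nearest to 0.

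Pro-survival genes were compared next. Mcl1, a short-lived protein that NOXA and BIM bind (gene 17210, chromosome 3, 95656944 to 95663179), was at 191, 98.2 and 102 RPKM in the CD34 negative libraries and at 209, 91.0 and 124 RPKM in the positive ones. Both libraries of tumor 1 were high, and the groups overlapped. With the block, Mcl1 was at -0.10 ± 0.13 on the log2 scale (95% confidence interval -0.39 to 0.19, limma-voom adjusted p = 0.715). Its value with the block was -0.02 without tumor 3, and without the block it went from -0.16 to -0.03 when CD34 negative library 3 was left out. Bcl2l2 (gene 12050, chromosome 14, 54883366 to 54890858) was at 18.6, 24.3 and 15.3 against 16.04, 18.1 and 14.4 RPKM. It was higher in each tumor by 0.08 to 0.42, and its log2 fold change with the block was 0.26 ± 0.14, with a 95% confidence interval of -0.06 to 0.58. Bcl2l2 was at 0.32 with the block without tumor 3, and without the block went from 0.23 to 0.40 without CD34 negative library 3. In GENCODE, the gene Gm20521 shares 594 exonic bases with Bcl2l2 on the same strand, so the origin of reads there is uncertain. RefSeq lists no locus that overlaps Bcl2l2. Bcl2l1 (gene 12048, chromosome 2, 152758732 to 152833803) was at 7.29, 7.86 and 3.82 against 5.04, 6.37 and 4.87 RPKM, higher in tumors 1 and 2 and lower in tumor 3. Its log2 fold change with the block was 0.21 ± 0.23, with a 95% confidence interval of -0.31 to 0.74. Without tumor 3 the blocked value of Bcl2l1 was 0.37, and the value without the block went from 0.12 to 0.42 without CD34 negative library 3. Counts per gene do not separate the long pro-survival from the short pro-death splice form of Bcl2l1.

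Bcl2, the founding member of the family (gene 12043, chromosome 1, 106538176 to 106714290), had the largest change of the pro-survival genes. It was at 3.499, 2.37 and 2.02 RPKM in the CD34 negative libraries and at 3.33, 1.46 and 0.815 RPKM in the positive ones. The groups overlapped through CD34 positive library 1, and the log2 ratio within tumors 1, 2 and 3 was 0.07, 0.70 and 1.304. Bcl2 had a log2 fold change of 0.87 ± 0.39 (SE; limma-voom adjusted p = 0.364) without the block and of 0.61 ± 0.25 with it (95% confidence interval 0.04 to 1.17, adjusted p = 0.183). With the block it was 0.41 without tumor 3. D630008O14Rik shares 558 exonic bases with Bcl2 on the opposite strand. The ratio of Bax to Bcl2, often read as a measure of apoptotic priming, was 18.8, 30.4 and 40.7 in the CD34 negative libraries and 15.0, 32.6 and 47.2 in the positive ones. The CD34 negative library had the higher ratio in tumor 1 alone.

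As a set, 6 of 10 members had the higher level in the CD34 negative library of each tumor, beside 22.8% of all tested genes, and 0 of 10 were lower in 3 of 3 tumors, beside 23.4%. The 6 were Bax, Bbc3, Pmaip1, Bcl2l11, Bcl2 and Bcl2l2. The groups did not overlap, with CD34 negative CAFs higher, for 3 of 10 members and 10.4% of all tested genes. The median log2 fold change without the block was 0.62 over the members, 1.23 over the 4 BH3-only and 0.18 over the 4 pro-survival genes, beside -0.03 over all tested genes. Members called higher numbered 3 with the tumor as a random effect, beside 2.36% of all tested genes. edgeR's quasi-likelihood test with the block called Pmaip1 alone, beside 1.76% of all tested genes. DESeq2 called Bax, Bbc3 and Pmaip1 without the block, beside 2.11%, and with it, beside 5.65%.

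Summed levels of the pro-death and the pro-survival members describe the transcript balance in total level, to which the abundant genes add most. The 6 pro-death genes summed to 116, 124 and 154 RPKM in CD34 negative libraries 1, 2 and 3 and to 78.8, 79.8 and 62.4 RPKM in the positive ones. The 4 pro-survival genes summed to 220.3, 133 and 123.3 RPKM against 233.5, 117 and 144 RPKM. The pro-death sum was thus higher in each CD34 negative library than in any positive one, whereas the pro-survival sums overlapped. Bax and Pmaip1 made up most of the pro-death sum and of its difference between groups. Their means were 73.25 and 34.0 of 131.4 RPKM in CD34 negative and 45.3 and 9.44 of 73.65 RPKM in CD34 positive CAFs. The ratio of the pro-death to the pro-survival sum was 0.528, 0.937 and 1.25 in CD34 negative libraries 1, 2 and 3 and 0.337, 0.682 and 0.433 in the positive ones. Within each tumor the CD34 negative library had the higher ratio, by 0.65, 0.46 and 1.52 on the log2 scale, with a mean of 0.88 ± 0.57 (SD, n = 3). The mean was 0.55 without tumor 3, and 0.585 ± 0.56 over all tumors with Mcl1 left out of the pro-survival sum. Libraries of tumor 1 had the lower ratio in both groups, beside their high Mcl1. With the median gene of each side in place of the sums, the mean was 0.23 ± 0.51 (SD, n = 3) and the ratio was higher in tumor 3 alone. These sums were chosen with the members and carry no test.

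**Figure D3:**
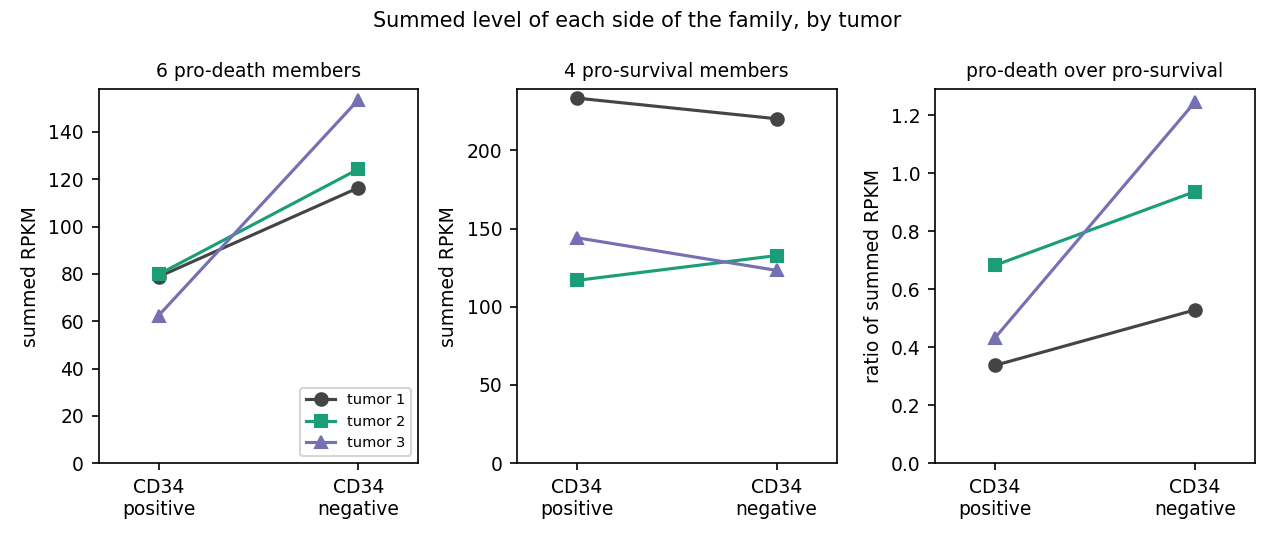
Summed RPKM of the 6 pro-death members, of the 4 pro-survival members and the ratio of both sums, in the CD34 positive and CD34 negative library of each tumor (lines join the libraries of one tumor, and axes start at 0). The pro-death sum is higher in the CD34 negative library of all 3 tumors, and the pro-survival sum in tumor 2 alone.

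Ratios of Pmaip1, Bbc3 and Bcl2l11 to Mcl1 set these ligands beside their most abundant partner, per length. The ratio of Bid to Mcl1 was not computed. Within tumors 1, 2 and 3, Bid changed by -0.53, 0.72 and 1.49 on the log2 scale and Mcl1 by -0.13, 0.11 and -0.28, so Bid fell more than Mcl1 in tumor 1. The ratio of Pmaip1 to Mcl1 was 0.126, 0.292 and 0.483 in CD34 negative libraries 1, 2 and 3 and 0.0479, 0.129 and 0.0528 in the positive ones, higher within each tumor although the groups overlapped. The ratio of Bbc3 to Mcl1 was 0.0394, 0.0381 and 0.0340 against 0.0111, 0.0130 and 0.0145. Relative to Mcl1, Bbc3 therefore varied little within each group, at 0.0372 ± 0.00281 and 0.0129 ± 0.00172 (SD, n = 3), and the groups were far apart. For Bcl2l11 the ratio to Mcl1 was 0.0448, 0.0375 and 0.0609 against 0.0366, 0.0310 and 0.0274, and the groups did not overlap. Each of these ratios compares transcripts and not the proteins that bind each other.

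**Figure D4:**
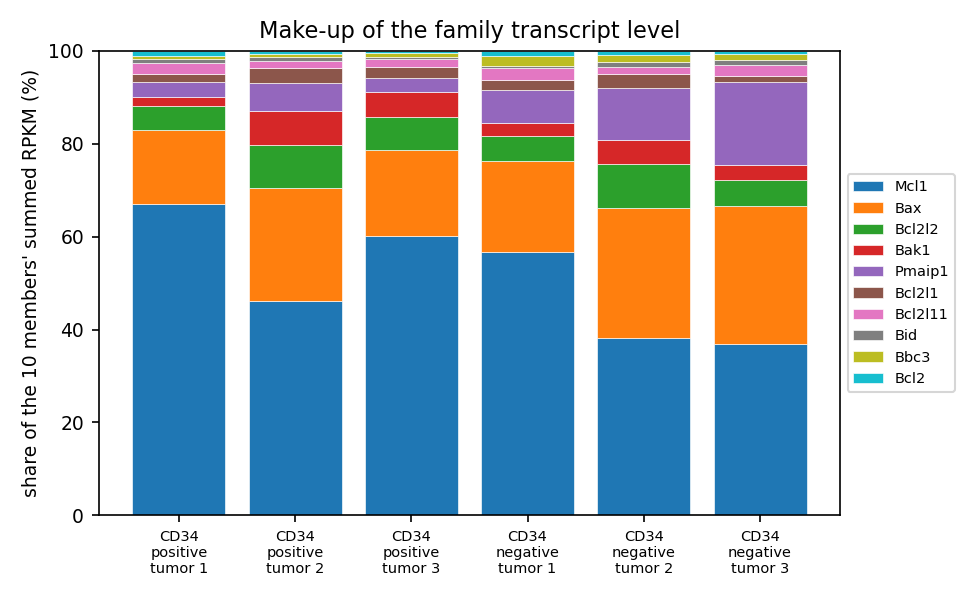
Share of each member in the summed RPKM of the 10 genes, in percent, for each of the 6 libraries. Mcl1 makes 46.2% to 67.0% of the sum in CD34 positive and 36.9% to 56.7% in CD34 negative libraries, and Pmaip1 3.17% to 5.98% and 7.14% to 17.8%.

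Within the family total, Mcl1 took 57.75% ± 10.55 in CD34 positive and 43.9% ± 11.1 in CD34 negative CAFs (SD, n = 3), and the ranges overlapped. Bax took 19.6% ± 4.20 and 25.7% ± 5.45, again with overlap. The share of Pmaip1 was 4.12% ± 1.61 and 12.04% ± 5.40 and that of Bbc3 0.738% ± 0.137 and 1.65% ± 0.518, and for these 2 genes the libraries of the groups did not overlap. Bcl2l2 kept a like share, at 7.11% ± 2.04 and 6.83% ± 2.27.

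Other genes of the pathway were examined by lists written from general knowledge. With the block, 4.32% of all tested genes were called higher and 4.25% lower, to set beside the counts of each list. Of 15 further BCL2 family genes, 10 were tested, and with the block 1 was called higher and 0 lower. The gene called was Bok, which encodes a pore-forming relative of BAX, at 19.5, 28.6 and 15.2 CPM in CD34 negative and 8.36, 17.3 and 7.02 CPM in CD34 positive libraries. With the block, Bok was at 0.88 on the log2 scale (limma-voom adjusted p = 0.0368) and higher in 3 of 3 tumors, although the groups overlapped. DESeq2 with the block called Bok as well. Its call was lost without the block (adjusted p = 0.429 in limma-voom), with the tumor as a random effect (0.142 in limma-voom), in edgeR with the block (0.0558) and in limma-voom with the block without tumor 1 (0.109) or tumor 2 (0.2135). Bnip3, a mitophagy receptor with a BH3-like stretch, had the largest change among the expressed genes of this list, at -0.97 ± 0.46 without the block, and did not pass (adjusted p 0.384 in limma-voom). Bnip3 was lower in tumors 1 and 2 and higher in tumor 3, and with the block without tumor 3 it was at -1.31 and passed (limma-voom adjusted p = 0.000852). Of 13 genes of mitochondrial release, the apoptosome and caspases, 0 were called in either direction in limma-voom with the block. Here the largest change was that of Htra2, a protease that opposes the inhibitor of apoptosis proteins, at 0.61 ± 0.18 without the block. It was at 37.9, 37.9 and 37.6 against 24.4, 26.8 and 22.2 CPM, with no overlap. The adjusted p from limma-voom was 0.0539 with the block, 0.0481 with the tumor as a random effect and 0.0495 with the block without tumor 3. In DESeq2 with the block, Htra2 was called higher (adjusted p = 0.0266).

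Upstream of Bid, 1 of 7 death receptor genes was called higher and 0 lower with the block. This was Cflar, which encodes the caspase-8 inhibitor c-FLIP, at 118, 158 and 194 CPM in CD34 negative and 87.0, 95.6 and 79.7 CPM in CD34 positive libraries. Its groups did not overlap, and with the block Cflar was at 0.84 on the log2 scale (limma-voom adjusted p = 0.0161). It did not pass without the block (adjusted p = 0.146 in limma-voom) or in edgeR with the block (adjusted p = 0.0666). Of 5 inhibitor of apoptosis genes, 1 was called lower with the block, Birc5, which encodes survivin and is expressed in dividing cells. It was at 1.76, 6.02 and 0.578 against 2.97, 22.0 and 5.05 CPM, with a log2 fold change of -1.84 (limma-voom adjusted p = 0.0191) with the block, and the summed cycling markers were lower as well. The call on Birc5 was lost without the block (-2.55, adjusted p = 0.327 in limma-voom), with the tumor as a random effect (0.132 in limma-voom), in edgeR with the block (0.104) and in limma-voom with the block without tumor 2 (0.5545). DESeq2 with the block kept this call. Without the block and CD34 negative library 3, Birc5 was at -1.79. Of 8 regulators of transcription or turnover of the family, 1 was called higher and 0 lower with the block. This was Foxo3, at 81.5, 37.2 and 48.7 against 45.6, 19.9 and 19.2 CPM, with a log2 fold change of 1.00 (limma-voom adjusted p = 0.00793) with the block. It did not pass without the block (adjusted p = 0.212 in limma-voom), and passed with the block without each tumor in turn. Groups did not overlap for Cflar, and overlapped for Birc5 and Foxo3.

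Targets of p53 outside the family were set beside Bax, Bbc3 and Pmaip1, with the reservation that their direction in these libraries was known when the list was written. Of 10 such genes, 9 were called higher and 0 lower with the block, beside 4.32% and 4.25% of all tested genes. All 10 were higher in 3 of 3 tumors, beside 22.8% of all tested genes. The median log2 fold change of the 10 with the block was 1.37, between those of Bbc3 (1.49) and Bax (0.70). Without the block 1 of the 10 was called, Phlda3, and edgeR with the block called 7. The called genes were Cdkn1a, Mdm2, Ccng1, Phlda3, Zmat3, Trp53inp1, Sesn2, Eda2r and Aen, with log2 fold changes from 0.93 for Aen to 1.54 for Cdkn1a in limma-voom with the block. The remaining gene, Perp, did not pass. The list does not hold every target of p53. Fas, Tnfrsf10b and Apaf1, which stand in other lists here, were at 0.50, 0.75 and -0.04 and did not pass in limma-voom with the block. Trp53 itself was at 0.05 (limma-voom adjusted p = 0.892 with the block). Since the direction was known beforehand, the counts of this list carry no test, and a part of p53 was not tested.

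**Figure D5:**
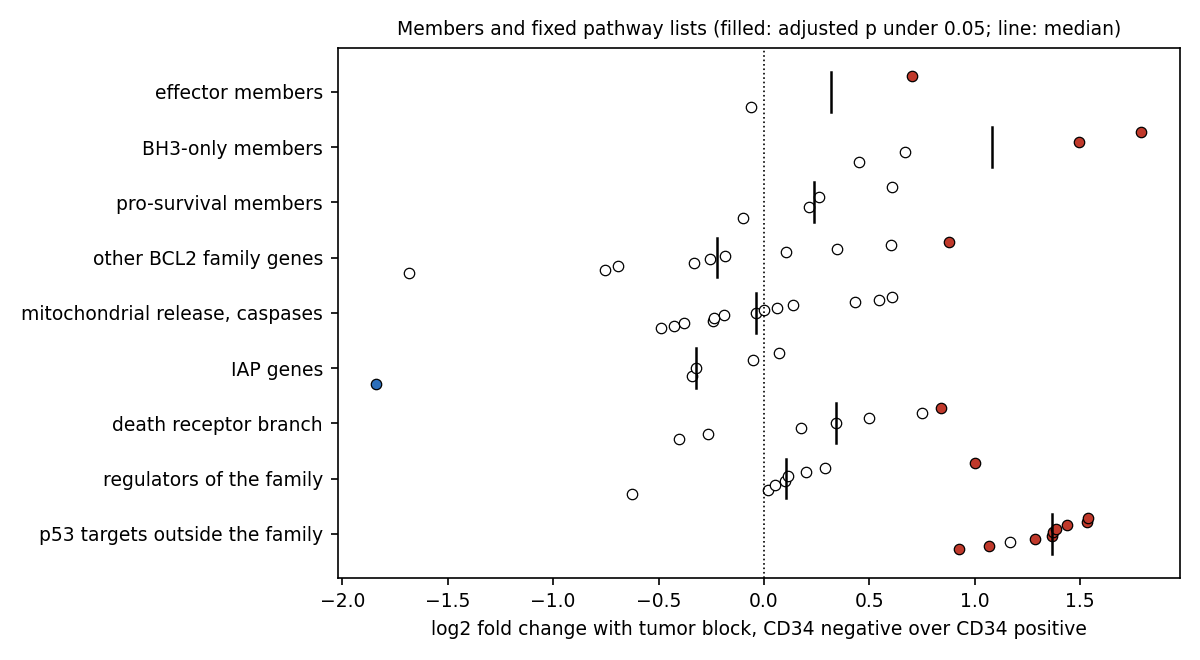
Log2 fold change with the tumor as a block for each tested gene of the 3 groups of members and 6 fixed lists; filled points have an adjusted p under 0.05, open points do not, and the line is the list's median. Filled points are 9 of 10 in the p53 target list, 2 of 4 among BH3-only members and 0 of 13 among genes of mitochondrial release and caspases.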

How the data were processed

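Gene expression was measured by RNA sequencing in 6 libraries, 3 of CD34 negative and 3 of CD34 positive CAFs, one of each per tumor. The authors mapped reads to the GRCm38 mouse genome and assigned them to NCBI genes with featureCounts (Rsubread); the deposited values are raw counts per gene, with replicates kept apart. Settings for strand and for reads with several matches are not given in the sources used here, and the TruSeq RNA v2 kit does not mark strand. Sample titles gave the group and the tumor number.

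The steps are those the paper names, but its text does not say whether its fit held a term for the tumor. Genes without annotation, which the authors removed, were kept, and 14563 genes with a symbol were tested as an alternative. The paper reports more genes as higher in CD34 negative CAFs than the 3 called here without the block. With the block, 642 genes were called higher. The fit without the block is therefore not taken as the authors' own test. Here filterByExpr (minimum count 10) took out low genes, TMM scaled the libraries and limma-voom compared the groups (R 4.3.3, edgeR 4.0.16, limma 3.58.1), with p-values adjusted over all 14855 tested genes (Benjamini-Hochberg) and a two-sided threshold of 0.05. DESeq2 1.42.0 was an alternative. CPM and RPKM were computed from TMM-scaled library sizes and the deposited gene length. The tumor pairs the libraries, since each tumor gave both fractions; same-numbered libraries deviated together from their group means, with correlations of 0.373, 0.350 and 0.219 for tumors 1, 2 and 3. Libraries of one group differed by far more than sampling noise, with a chi-square per gene of at least 140.4. The members and lists were chosen with earlier results of these data known. Named genes are the members, Cd34 and Pdgfra, list genes with an adjusted p under 0.05 in either limma-voom fit, and the gene of each list with the largest change where mean log2 CPM was 1 or more. Scripts were tested on simulated counts. Positions are from RefSeq (GRCm38.p6) and exon overlaps from GENCODE M21. Each library and each tumor was left out in turn; thinning of the counts to the smallest total, and leaving tumors out of the ratio of sums, were chosen after seeing the data.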

Additional observations from a re-analysis of the deposited data

How the results depend on the processing

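With 3 tumors, the calls on the BCL2 family depend on how the tumor enters the fit. Among members, 0 were called in limma-voom without the block, against 3 with the replicate block, 3 with the tumor as a random effect, 3 in DESeq2 without and 3 with the block, 1 in edgeR with the block, 1 with sample quality weights and 3 with the block after thinning; leaving out libraries or tumors gave 0 to 1 without and 1 to 3 with the block. Pathway genes called numbered 1, against 13 with the block, 12 with the random effect, 0 in edgeR without and 8 with the block, 9 in DESeq2 without and 15 with the block, 2 with quality weights and 13 with the block after thinning, and 0 to 3 without and 11 to 15 with the block when libraries or tumors were left out. Over all genes, 18 were called, against 1273 with the block, 703 with the random effect, 32 with library size alone, 9 in edgeR without and 575 with the block, 698 in DESeq2 without and 1733 with the block, 161 with quality weights and 1063 with the block after thinning, and 0 to 86 without and 851, 1134 and 2019 with the block when libraries or tumors were left out. The ratio of pro-death to pro-survival sums moved from 0.88 to 0.23 on the log2 scale with medians in place of sums; the cause was not tested. Bax, Bbc3, Pmaip1, Bcl2l11, Bid, Bcl2 and Bcl2l2 kept a positive sign in all 28 fits. Bak1 turned to 0.017 and 0.006 in edgeR and DESeq2 with the block, 0.022 in limma-trend and 0.035 with quality weights. When libraries or tumors were left out, Bak1 ranged from -0.365 to 0.188 (0.002 and 0.027 with the block without tumors 2 and 3), Bcl2l1 from -0.048 to 0.419, Mcl1 from -0.46 to 0.197 and Pdgfra from -0.332 to 0.006. Cd34 kept its sign in all 28 fits, but its adjusted p was not under 0.05 in 8 of them. At an unadjusted p under 0.05, limma-voom gave 2128 genes with all libraries and 1123 to 2217 in the 4 fits that called 0.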

Other observations

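The Bcl2a1 genes, pro-survival members best known from blood cells, were near the floor. Bcl2a1a, Bcl2a1b and Bcl2a1d were at no more than 0.433, 0.288 and 0.234 CPM in any library and did not pass the filter on low counts, nor did Hrk and Bcl2l10; the 3 Bcl2a1 genes are near-identical copies, so their separate values are uncertain. Bik, a BH3-only gene, was at 3.34 CPM in CD34 positive library 1 and at 0 to 0.516 CPM in the other 5 libraries.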
